A study of Bos indicus with 5 samples.

Results

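The axonemal dyneins, radial spokes, tektins and related proteins build the motor and scaffold of motile cilia. They were followed here in the ampulla, the part of the oviduct in which fertilization takes place. Members were picked by gene symbol alone, as every row of the deposited ampulla table whose symbol begins with the root of a dynein arm, radial spoke, tektin or SPAG (sperm associated antigen) gene, or is 1 of 23 further symbols spelled out. The rule kept 59 of 24616 genes, and no measured value was used to choose them. Of the spelled-out symbols 19 were matched, and CCDC164 and LRRC50 were present under their newer names DRC1 and DNAAF1, while HYDIN and EFHC2 were not analysed here. Polyadenylated RNA from the whole wall of the ampulla was sequenced from 5 multiparous, non-lactating Nelore (Bos indicus) cows, each giving 1 library, with 2 cows ovulating a large follicle and forming a large corpus luteum (LF/LCL) and 3 with a small follicle and small corpus luteum (SF/SCL). All cows were presynchronized with a prostaglandin F2α analog and a GnRH agonist. All then received a 1 g progesterone device with 2 mg estradiol benzoate on day -10, prostaglandin at and shortly after device removal, and GnRH on day 0. The device came out 42 h before GnRH in LF/LCL, whose cows also had prostaglandin at device insertion, and 30 h before it in SF/SCL. Tissue was taken on day 4 from the oviduct on the side of the corpus luteum. The study chose cows at the extremes of follicle size and hormone levels, and left out a further LF/LCL library with few reads, so the groups do not stand for average animals.

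A motile cilium beats because dynein arms on each outer microtubule doublet walk along the neighbouring doublet. Outer arms set the force and frequency of the beat, inner arms shape its bend, and radial spokes, the central pair and the nexin-dynein regulatory complex pass signals that time the arms. Tektins and other inner proteins stiffen the doublets, and the arms are put together in the cytoplasm by dedicated assembly factors before they enter the cilium. In the oviduct these cilia stand on the multiciliated cells of the epithelium, which help to move the oocyte and embryo and are known to respond to ovarian steroids.

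The label of the set was checked first. FOXJ1, the transcription factor that switches on the motile cilium programme, had 8481 and 9373 normalized reads in the LF/LCL libraries and 11198, 12698 and 10647 in the SF/SCL libraries. Normalized reads are reads per gene after division by the size factor of the library. Of the 59 members 55 passed the filter on low values, a mean over 5 normalized reads, and 35 of these had a mean of at least 1000. The ampulla libraries therefore held abundant RNA of the motile cilium. The set is broader than its label in one respect, because the SPAG root also took in SPAG4, SPAG4L, SPAG5, SPAG7, SPAG9 and SPAG11, which are not known as axonemal parts.

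Libraries held from 13418278 to 19592174 reads assigned to genes. The members together took 0.668% (replicate 1) and 0.825% (replicate 2) of them in LF/LCL, against 0.98%, 1.06% and 0.943% in SF/SCL replicates 1, 2 and 3. Both LF/LCL shares were below all SF/SCL shares, with a mean for LF/LCL of 0.747% ± 0.11 (SD, n = 2) against 0.994% ± 0.059 (SD, n = 3) for SF/SCL. CAPS, a calcium-binding protein of ciliated cells, gave the most reads, and without it the shares averaged 0.634% ± 0.072 and 0.852% ± 0.068. In bulk tissue, fewer ciliated cells and less RNA per ciliated cell cannot be told apart.

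The question of the comparison was whether the axonemal genes differed between ampullae exposed to the 2 hormone backgrounds. Most members had lower values in LF/LCL. The median log2 fold change, LF/LCL over SF/SCL on the log2(normalized reads + 1) scale, was -0.34 over the 55 members tested and 0.01 over the 15815 genes tested. The fold change was below 0 in 50 members (90.9%), against 49.2% of all genes tested. It was above 0 in DNAAF1, SPAG8, SPAG16, SPAG5 and DNAAF3. With limma 0 members had an adjusted p under 0.05 (Benjamini-Hochberg over all genes tested), where 0.0% of all genes had one, and the smallest adjusted p of a member was 0.203, for SPAG1. An unadjusted limma p under 0.05 with a lower level in LF/LCL was found for 20 members (36.4%), against 5.86% of all genes tested, and with a higher level for 1 member, against 5.64%. The groups did not overlap in 30 members that were lower in LF/LCL (54.5%, against 15.1% of all genes) and in 1 that was higher (15% of all genes). The edgeR quasi-likelihood test on recovered reads gave 0 members with an adjusted p under 0.05 and 20 with an unadjusted p under 0.05, 19 of them lower in LF/LCL, which 5.69% of all genes were.

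DESeq2 on the recovered reads called 6 members at an adjusted p under 0.05 (10.9%), all lower in LF/LCL, where it called 1.5% of all genes lower and 1.38% higher. These were SPAG1, SNTN, ARMC3, RSPH1, CCDC114 and CCDC65. Leaving out 1 library changed which members DESeq2 called. Without SF/SCL replicates 1, 2 and 3 it called 3, 2 and 7 members. In these fits it called 1.09%, 1.17% and 0.917% of all genes lower in LF/LCL. All members called were lower in LF/LCL, and at most 2 of the first 6 were among them. The edgeR exact test called 5, of which SPAG1, SNTN, ARMC3 and RSPH1 were lower in LF/LCL (0.961% of all genes) and SPAG5 was higher (1.16% of all genes). The calls thus depended on the tool. LF/LCL replicate 1 weighed on the counts, as 7 members had an unadjusted limma p under 0.05 with a lower level in LF/LCL without it, and 11 had one without SF/SCL replicate 2. The median log2 fold change was -0.25 without LF/LCL replicate 1 and -0.33 without SF/SCL replicate 2.

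**Figure D1:**
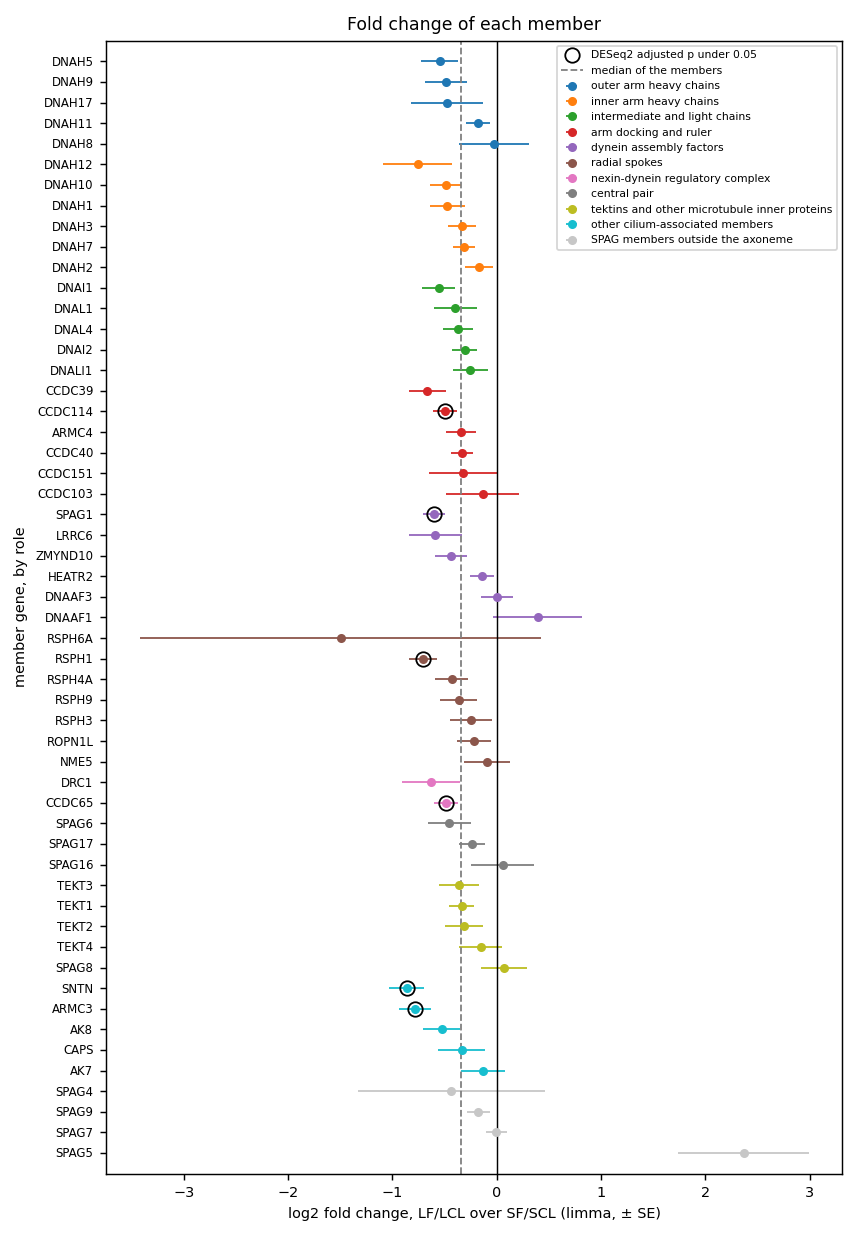
Each point is the log2 fold change, LF/LCL over SF/SCL, of 1 of 54 members tested, with its standard error from limma, coloured by role; rings mark the 6 members called by DESeq2, and the dashed line is the median of the members. Most points lie left of 0, SPAG5 lies far to the right, and RSPH6A has the widest error.

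The lower levels in LF/LCL were unequal between its 2 cows. LF/LCL replicate 1 was the lowest library in 39 of 55 members (70.9%), where it was the lowest in 21.5% of all genes tested. SF/SCL replicate 2 was the highest library in 28 members (50.9%, against 19.0% of all genes tested). SF/SCL replicate 1 was the highest in 16 (29.1%, against 14.5%). Centred on each gene's own mean, the median member stood at -0.28 in LF/LCL replicate 1 and -0.10 in LF/LCL replicate 2 on the log2 scale. The median stood at 0.16, 0.26 and 0.01 in SF/SCL replicates 1, 2 and 3. LF/LCL replicate 2 and SF/SCL replicate 3 were thus the nearest libraries of the 2 groups. SF/SCL replicate 3 was the lowest library in 8 members (14.5%, against 24.3% of all genes tested) and the highest in 9 (16.4%, against 23.7%). Both shares were below those over all genes tested.

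**Figure D2:**
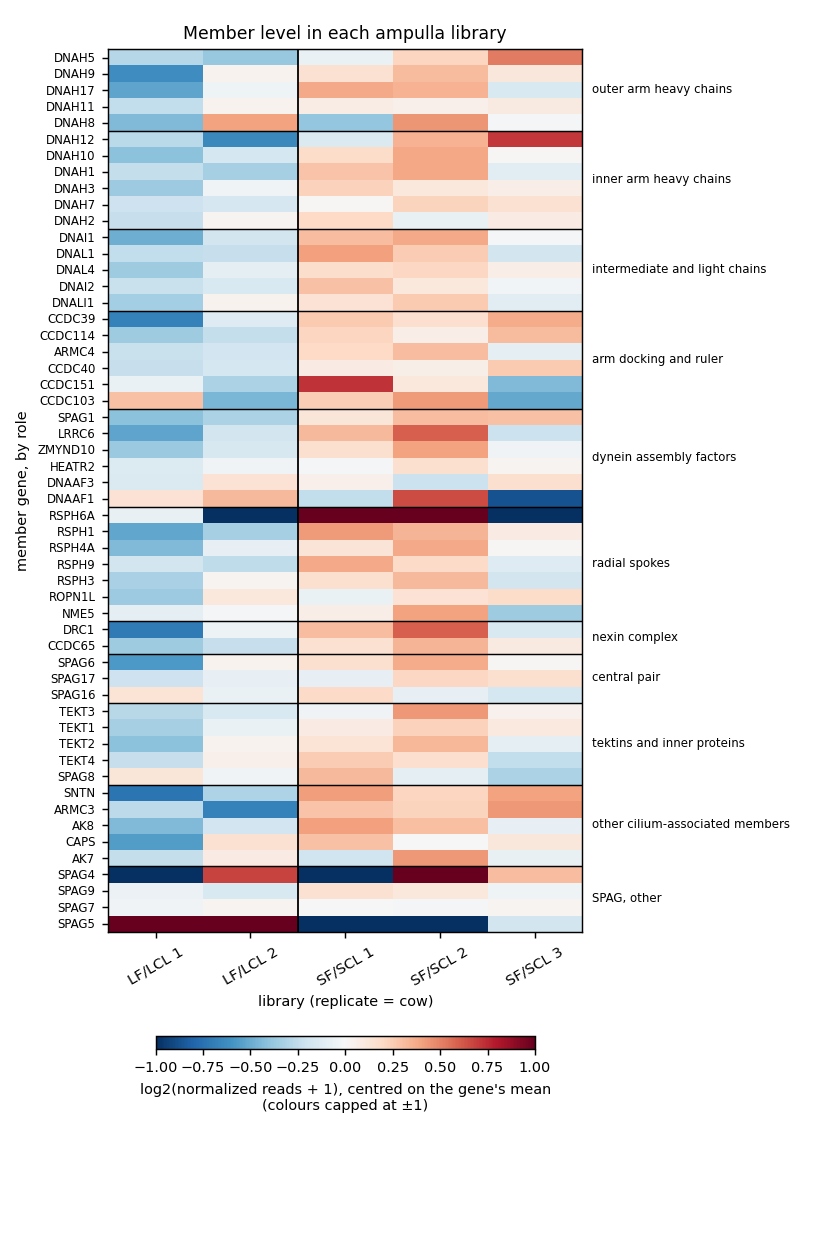
Rows are 54 members tested, grouped by role, and columns are the 5 libraries, each from 1 cow. Colour is log2(normalized reads + 1) centred on the gene's mean and capped at ±1, so that red is above and blue below the gene's own mean. The LF/LCL replicate 1 column is blue in most rows and the SF/SCL replicate 2 column is red in most rows.

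Heavy chains carry the motor of each dynein arm. DNAH5, the main outer arm motor along the whole cilium, had 7050 and 6607 normalized reads in LF/LCL against 8173, 9925 and 12257 in SF/SCL. Every SF/SCL cow lay above both LF/LCL cows, and SF/SCL replicate 3 stood highest (log2 fold change -0.55 ± 0.18 SE, limma adjusted p 0.359). DNAH9, the outer arm motor of the distal cilium, had 5158 and 8147 in LF/LCL against 8820, 9909 and 8617 in SF/SCL. Here LF/LCL replicate 2 came close to the SF/SCL libraries (log2 fold change -0.49 ± 0.20). DNAH11, the outer arm motor of the proximal cilium, showed a smaller difference, with 4493 and 5449 in LF/LCL against 5503 to 5662 in SF/SCL (log2 fold change -0.18 ± 0.12). DNAH17 and DNAH8, heavy chains known above all from the sperm tail, had means of 61.4 and 366.8 normalized reads over the 5 libraries. Their groups overlapped, with log2 fold changes of -0.48 ± 0.35 and -0.03 ± 0.34.

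Of the inner arm heavy chains 6 were tested, and all had a fold change below 0. An unadjusted limma p under 0.05 was found for 4 of them, against 5.86% of all genes tested with a lower level. The groups did not overlap in 5, against 15.1% of all genes tested that were lower in LF/LCL. DNAH10, part of the double-headed inner arm, had 2411 and 2841 normalized reads in LF/LCL against 3652, 4197 and 3244 in SF/SCL (log2 fold change -0.49 ± 0.15 SE, limma adjusted p 0.329). Its lowest SF/SCL library was replicate 3. DNAH1, another inner arm heavy chain, had 2737 and 2568 in LF/LCL against 3934, 4230 and 2997 in SF/SCL (log2 fold change -0.47 ± 0.16). DNAH7, a single-headed inner arm motor, had 2749 and 2830 in LF/LCL against 3201, 3703 and 3530 in SF/SCL (log2 fold change -0.32 ± 0.11). All 3 were separated between the groups, and the LF/LCL values of DNAH7 lay close together. DNAH3 had a log2 fold change of -0.33 ± 0.13 and DNAH2 of -0.17 ± 0.13. DNAH12 had fewer reads, from 66.8 to 171.7 normalized reads over the libraries, and a log2 fold change of -0.76 ± 0.33. DNAH6 was under the filter with 1 read in total, in LF/LCL replicate 1.

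Intermediate and light chains hold the arm on the doublet and tune the motor. All 5 had lower mean levels in LF/LCL, 3 with an unadjusted limma p under 0.05, against 5.86% of all genes tested with a lower level. DNAI1, an outer arm intermediate chain, had 1342 and 1653 normalized reads in LF/LCL against 2320, 2440 and 1859 in SF/SCL, without overlap (log2 fold change -0.56 ± 0.16 SE, limma adjusted p 0.323). Its partner DNAI2 had 2822 and 2968 in LF/LCL against 4036, 3535 and 3234 in SF/SCL (log2 fold change -0.31 ± 0.12). Among the light chains DNAL4 had a log2 fold change of -0.37 ± 0.14, DNAL1 of -0.40 ± 0.21 and DNALI1, of the inner arms, of -0.25 ± 0.17. The groups overlapped in DNALI1 only.

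Docking and ruler proteins place the arms at their regular spacing. CCDC39, which with CCDC40 forms the ruler along the doublet, had 2369 and 3464 normalized reads in LF/LCL against 4534, 4237 and 4882 in SF/SCL (log2 fold change -0.67 ± 0.18 SE, limma adjusted p 0.306). CCDC40 had 2112 and 2199 in LF/LCL against 2621, 2579 and 2978 in SF/SCL (log2 fold change -0.34 ± 0.11). Both were highest in SF/SCL replicate 3, but CCDC39 differed more between the LF/LCL cows than CCDC40 did. CCDC114, of the outer arm docking complex, had 1118 and 1211 in LF/LCL against 1657, 1496 and 1776 in SF/SCL, and was called by DESeq2 (log2 fold change -0.49 ± 0.12 by limma, DESeq2 adjusted p 0.0387). ARMC4, another docking protein, had a log2 fold change of -0.34 ± 0.14. CCDC151 and CCDC103, which also help to dock the arms, varied within both groups, and CCDC151 ran from 385.3 in SF/SCL replicate 3 to 864 in SF/SCL replicate 1.

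The 6 dynein assembly factors did not share 1 pattern. SPAG1 had the smallest limma p of the set, with 1428 and 1524 normalized reads in LF/LCL against 2061, 2356 and 2327 in SF/SCL (log2 fold change -0.60 ± 0.11 SE, limma adjusted p 0.203, DESeq2 adjusted p 0.00158). Both LF/LCL cows lay well below the 3 SF/SCL cows. ZMYND10, a co-chaperone of the heavy chains, had 4170 and 4841 in LF/LCL against 6041, 7123 and 5280 in SF/SCL (log2 fold change -0.44 ± 0.16). LRRC6, its partner, had a log2 fold change of -0.59 ± 0.25, and the groups overlapped. HEATR2 had a log2 fold change of -0.14 ± 0.11. DNAAF3 had 2144 and 2618 in LF/LCL against 2454, 2038.5 and 2638 in SF/SCL (log2 fold change 0.004 ± 0.15). Its highest and lowest libraries were both in SF/SCL. DNAAF1 had 1499 and 1693 in LF/LCL against 1140, 2123 and 738.4 in SF/SCL (log2 fold change 0.39 ± 0.42). The SF/SCL cows alone covered a wider range than the difference between groups.

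All 7 radial spoke genes that passed the filter had a fold change below 0, against 49.2% of all genes tested. The groups did not overlap in 3, against 15.1% of all genes tested that were lower in LF/LCL. RSPH1, a spoke head protein, had 1719 and 1955 normalized reads in LF/LCL against 3304, 3113 and 2604 in SF/SCL (log2 fold change -0.71 ± 0.14 SE, limma adjusted p 0.222, DESeq2 adjusted p 0.00377). RSPH4A, also of the spoke head, had 2022 and 2599 in LF/LCL against 3004, 3560 and 2773 in SF/SCL (log2 fold change -0.43 ± 0.16). In both genes every LF/LCL value lay below every SF/SCL value, and SF/SCL replicate 3 was the lowest of its group. RSPH1 and RSPH9 each overlap another gene, SLC37A1 and MRPS18A, so their reads are less certain. RSPH9 had a log2 fold change of -0.37 ± 0.18, RSPH3 of the spoke stalk -0.25 ± 0.20, ROPN1L -0.22 ± 0.17 and NME5 -0.09 ± 0.22. RSPH6A, a spoke head protein known from sperm, was the exception in its pattern. It had 7 and 2 reads in the LF/LCL libraries and 61, 62 and 0 in SF/SCL replicates 1, 2 and 3, so that 2 cows held nearly all of its reads. The 0 in SF/SCL replicate 3 allows up to 3.22 normalized reads, counting error only, and the log2 fold change of -1.50 ± 1.93 had an error larger than itself.

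The nexin-dynein regulatory complex links neighbouring doublets and checks the arms. CCDC65 had 3216 and 3513 normalized reads in LF/LCL against 4589, 5202 and 4394 in SF/SCL (log2 fold change -0.49 ± 0.12 SE, limma adjusted p 0.282, DESeq2 adjusted p 0.0284). DRC1 had 2301 and 3635 in LF/LCL against 4641, 5693 and 3389 in SF/SCL (log2 fold change -0.63 ± 0.28). The mean difference of DRC1 was the larger of the 2, but its groups overlapped, as SF/SCL replicate 3 lay below LF/LCL replicate 2. In the central pair, SPAG6 had 2704 and 4130 in LF/LCL against 4517, 5209 and 4075 in SF/SCL, with the groups overlapping by a narrow margin (log2 fold change -0.45 ± 0.21). SPAG17 had a log2 fold change of -0.24 ± 0.13 and SPAG16 of 0.06 ± 0.30.

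Tektins and other inner proteins of the doublet had a median log2 fold change of -0.32, against -0.34 over all members tested. TEKT1 had 2487 and 2983 normalized reads in LF/LCL against 3309, 3665 and 3342 in SF/SCL (log2 fold change -0.33 ± 0.12 SE, limma adjusted p 0.384), and its groups did not overlap. TEKT3 had a log2 fold change of -0.36 ± 0.19, TEKT2 of -0.31 ± 0.18, TEKT4 of -0.15 ± 0.21 and SPAG8 of 0.07 ± 0.22. The groups overlapped in the last 3. TEKT5 was under the filter with 3 reads in total, 1 in LF/LCL replicate 2 and 2 in SF/SCL replicate 3.

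Among the other proteins linked to motile cilia, SNTN and ARMC3 had 2 of the largest differences. SNTN encodes sentan, a protein of the ciliary tip, and had 331.9 and 444.3 normalized reads in LF/LCL against 736.1, 640.4 and 727.6 in SF/SCL (log2 fold change -0.86 ± 0.17 SE, limma adjusted p 0.222, DESeq2 adjusted p 0.00468). ARMC3, an armadillo repeat protein, had 2645 and 1989 in LF/LCL against 3868, 3702 and 4300 in SF/SCL (log2 fold change -0.78 ± 0.15, DESeq2 adjusted p 0.00281). In both genes all 3 SF/SCL cows stood well above both LF/LCL cows, but the LF/LCL order differed, with replicate 1 lowest in SNTN and replicate 2 lowest in ARMC3. SNTN overlaps C22H3orf49, which makes its reads less certain. The adenylate kinase AK8 had 880.8 and 1047 in LF/LCL against 1591, 1477 and 1129 in SF/SCL (log2 fold change -0.53 ± 0.18). AK7, a second adenylate kinase of cilia, overlapped between the groups (log2 fold change -0.13 ± 0.21). CAPS had 13413 and 22011 in LF/LCL against 24228, 19701 and 21410 in SF/SCL. Its log2 fold change of -0.34 ± 0.22 was 0.02 without LF/LCL replicate 1, the only library far below the others.

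**Figure D3:**
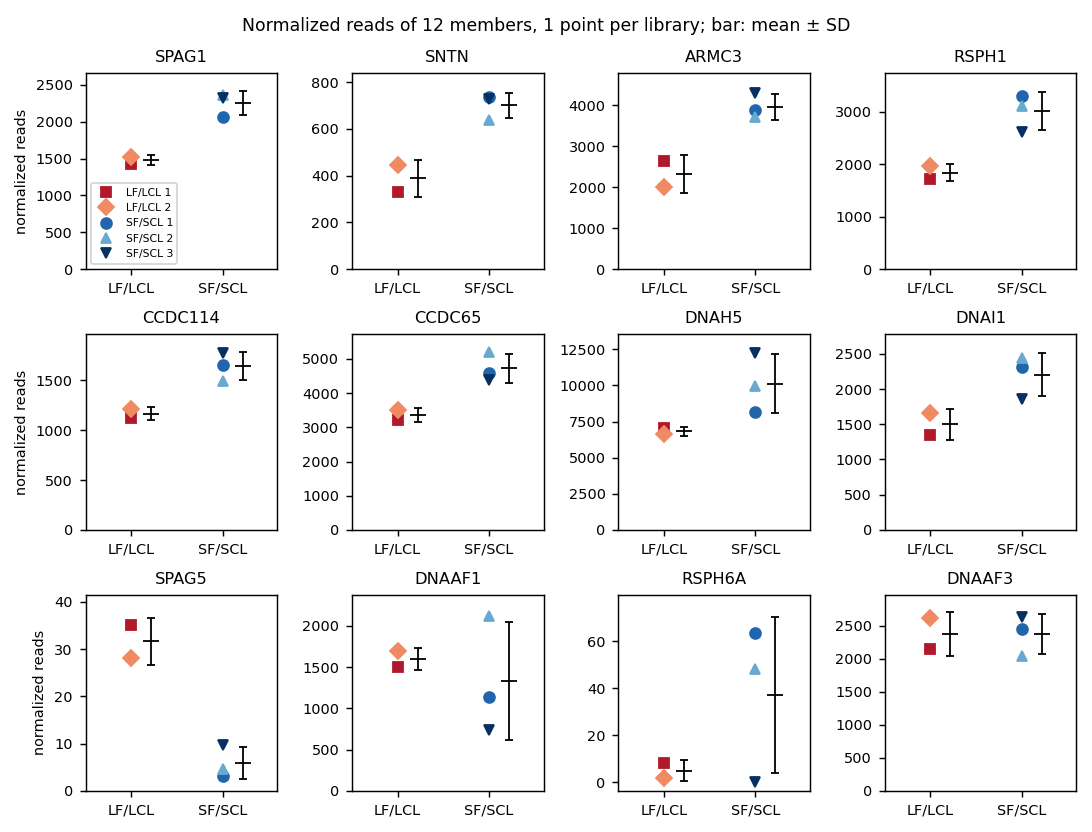
Normalized reads of 12 members in each library, with the mean ± SD of each group (n = 2 and n = 3) beside the points; every vertical axis includes 0. The top 2 rows hold genes without overlap between groups, all lower in LF/LCL; the bottom row holds SPAG5, which was higher in LF/LCL, and DNAAF1, RSPH6A and DNAAF3, which overlapped.

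The SPAG members outside the axoneme differed among themselves. SPAG5, a protein of the mitotic spindle, had 35.2 and 28.1 normalized reads in LF/LCL against 3.12, 4.66 and 9.66 in SF/SCL. It was the only member with an unadjusted limma p under 0.05 that was higher in LF/LCL (log2 fold change 2.37 ± 0.63 SE, limma adjusted p 0.306, DESeq2 adjusted p 0.0708). It rested on 77 reads in all, and the proliferation markers described further on were higher in LF/LCL as well. SPAG9, a scaffold of kinase signalling, had 1542 and 1447 in LF/LCL against 1784, 1726 and 1559 in SF/SCL, a small difference without overlap (log2 fold change -0.18 ± 0.11). SPAG7 had a log2 fold change of -0.005 ± 0.099 and lay between 842.1 and 876.9 normalized reads in all 5 libraries. SPAG4, a nuclear envelope protein, had 14.1 and 54.2 in LF/LCL against 14.6, 87.8 and 41.9 in SF/SCL, with no order between the groups (log2 fold change -0.43 ± 0.90). SPAG11, a defensin-like gene, had 3 reads, all in SF/SCL replicate 2. SPAG4L had 0 reads in every library, which allows at most from 2.33 to 3.52 normalized reads per library, counting error only. Without these 6 genes the median log2 fold change of the 51 members tested was -0.36. Of the 51, 20 still had an unadjusted limma p under 0.05 with lower levels in LF/LCL, against 5.86% of all genes tested.

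How closely a member followed the rest was measured as the root mean square difference, over the 5 libraries, between its centred log2 value and that of the median member. It was under 0.2 for 35 of the 55 members, with a median of 0.16. DNAL4 (0.044), TEKT1 (0.058) and ARMC4 (0.075) lay closest to the shared pattern. Those farthest from it were RSPH6A (2.21), SPAG5 (1.42) and SPAG4 (0.945), all 3 with low read numbers, and DNAAF1 (0.542) was the farthest with a mean over 1000 normalized reads. This likeness is a description of 5 libraries and was not tested.

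Genes of the same structures outside the symbol rule were read next. Of 112 other axoneme and motile cilium symbols 75 genes were found and 73 tested. Their median log2 fold change was -0.37, and 70 were below 0, against 49.2% of all genes tested. An unadjusted limma p under 0.05 was found for 29, all lower in LF/LCL, which 5.86% of all genes tested were. DNAJB13, a chaperone-like protein of the radial spoke, had 802.2 and 721.1 normalized reads in LF/LCL against 1127, 1299 and 1171 in SF/SCL (log2 fold change -0.65 ± 0.12 SE, limma adjusted p 0.203, DESeq2 adjusted p 0.00252). VWA3A had a log2 fold change of -0.54 ± 0.099. The summed members came to between 0.902 and 1.01 times the summed other axoneme genes in all 5 libraries, and the groups overlapped in this ratio. The 24 intraflagellar transport genes tested, which carry cargo into the cilium, had a median of -0.22. Of them 8 had an unadjusted limma p under 0.05 and a lower level in LF/LCL, against 5.86% of all genes tested. The 15 multiciliated cell regulators had a median of -0.16. Against the same 5.86%, 3 of them were such genes, RFX2, TP73 and FOXJ1 (log2 fold change -0.36 ± 0.12, limma adjusted p 0.362). The cytoplasmic dynein and dynactin subunits, which carry cargo along microtubules in the cell body, had a median of 0.02 over 16 genes, 7 below and 9 above 0.

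Markers of the other cells in the ampulla wall differed between the groups too. The 11 smooth muscle markers tested had a median log2 fold change of 1.47, with all 11 above 0. Of them 9 had an unadjusted limma p under 0.05, against 5.64% of all genes tested with a higher level. Their summed level was 126702 and 65504 normalized reads in LF/LCL against 17523 to 43586 in SF/SCL, without overlap. LF/LCL replicate 1, the lowest library for most members, was thus the highest for smooth muscle, and without it the smooth muscle median was 0.845. SF/SCL replicate 3 was the lowest for smooth muscle but in the middle for the members. The stromal fibroblast markers had a median of 0.81 (11 of 12 above 0), with summed levels of 96439 and 42170 in LF/LCL against 25833 to 52699 in SF/SCL, which overlapped. This stromal median was 0.37 without LF/LCL replicate 1 and 0.42 without SF/SCL replicate 2. The 16 proliferation markers had a median of 0.87, with 16 above 0. Of them 5 had an unadjusted limma p under 0.05, against 5.64% of all genes tested with a higher level. Their summed levels were 3525 and 2463 in LF/LCL against 2199 to 2394 in SF/SCL. The proliferation median was 0.55 without SF/SCL replicate 3. The immune cell markers had a median of 0.33 (11 of 13 above 0), with summed levels of 2726 and 3734 in LF/LCL against 1729 to 2965 in SF/SCL, and the median was 0.67 without LF/LCL replicate 1 and 0.55 and 0.50 when SF/SCL replicate 1 or 3 was left out. The endothelial markers had a median of 0.16 (6 of 10 above 0; -0.38 without LF/LCL replicate 1 and -0.11 without SF/SCL replicate 2), with summed levels of 8409 and 5237 against 6243 to 9137, and the mesothelial markers of -0.03 (2 of 5 above 0), with 7014 and 8069 against 8142 to 9107. The 3 blood marker genes tested were all above 0, with summed levels of 527.7 and 93.9 in LF/LCL against 32.2 to 257.2 in SF/SCL, and ALAS2 was at 0 in every library. Their part in the lower axonemal levels was not tested.

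Markers of the epithelium, in which the ciliated cells lie, had a median log2 fold change of 0.01 over 11 genes. Their summed level was 46598 and 46400 normalized reads in LF/LCL against 41077 to 43705 in SF/SCL. The summed members came to 2.26 and 2.78 times the summed epithelial markers in LF/LCL, and to 3.67, 3.69 and 3.41 times in SF/SCL. The groups were separate in this ratio. They overlapped in the ratio to the summed multiciliated cell regulators, at 6.98 and 8.07 in LF/LCL against 7.54 to 7.88 in SF/SCL. FOXJ1 made up most of that regulator sum, with 8481 of 15047 normalized reads in LF/LCL replicate 1 and 12698 of 20940 in SF/SCL replicate 2. The ratio thus reflects FOXJ1 more than the median regulator (log2 fold change -0.16). The groups also overlapped in the ratio to the summed intraflagellar transport genes, at 3.12 and 3.75 against 3.55 to 3.67. Single epithelial markers went both ways, with KRT19 at -0.81 ± 0.15 and CLDN4 at 1.20 ± 0.32 on the log2 scale. EPCAM had the most normalized reads of them in each library, 16806 and 14311 in LF/LCL against 10534 to 13863 in SF/SCL, and weighed most on the epithelial sum. The secretory cell markers had a median of 0.02 over 12 genes, 6 below and 6 above 0, with summed levels of 202503 and 183752 in LF/LCL against 168246 to 194934 in SF/SCL. Most of each sum was the oviduct glycoprotein OVGP1, with 142113 and 117179 in LF/LCL against 122187 to 147247 in SF/SCL. Single secretory markers differed widely. DESeq2 called CLU (log2 fold change 0.65 ± 0.11 by limma), PAX8 (0.62 ± 0.15), WFDC2 (1.74 ± 0.31) and LTF (3.03 ± 0.75) higher in LF/LCL and PIGR (-4.98 ± 1.29) lower, none of them with a limma adjusted p under 0.05. The groups overlapped in OVGP1 (log2 fold change -0.07 ± 0.15).

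**Figure D4:**
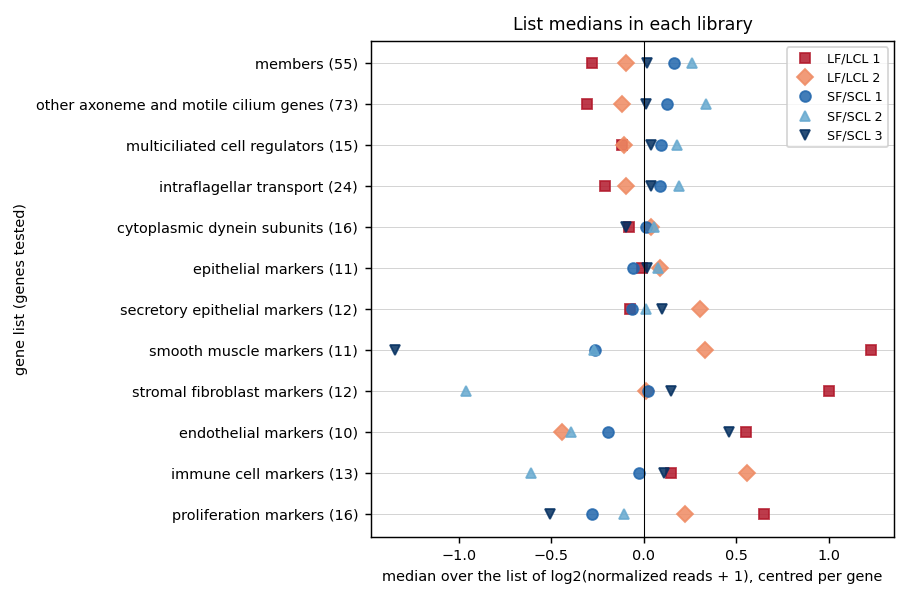
Each symbol is the median of a gene list in 1 library, as log2(normalized reads + 1) centred per gene; the number of genes tested is in parentheses, and "members" are the axonemal genes. In the top 4 lists both LF/LCL libraries lie left of all SF/SCL libraries, while for smooth muscle, immune cell and proliferation markers both lie to the right.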

How the data were processed

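RNA was extracted from frozen ampulla and sequenced as read pairs from polyA libraries. According to the methods and labels, the authors cleaned reads with seqyClean and aligned them with TopHat2 2.0.8 and Bowtie2 2.1.0. The reference was a repeat-masked Bos taurus genome, UMD 3.1. Uniquely and unambiguously mapped reads were counted with HTSeq. Whether counting used strand was not given in the sources used here. The deposited values are a normalized signal, the reads of a gene divided by 1 DESeq size factor per library. Every nonzero value was a whole multiple of 1 step per library (100% within 0.02 reads), which gave back whole reads.

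The 15815 genes with a mean over 5 were tested with limma 3.58.1 after log2(value + 1) transformation (functions lmFit and eBayes with trend=TRUE and robust=TRUE), 2 LF/LCL against 3 SF/SCL libraries, without covariates, two-sided, with Benjamini-Hochberg adjustment at 0.05. For genes with low values a fold change on this scale is an understatement. The edgeR 4.0.16 quasi-likelihood and exact tests and DESeq2 1.42.0 were run on the recovered reads. All were tested on simulated data. The other alternatives were pseudocounts of 0.5 and 5, no filter, the filter of the study (mean also above the SD), TMM and library size scaling, and leaving out each library. DESeq2 without each library was added after seeing the data.

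No measured value entered the symbol rule, but members and lists were chosen with earlier results of these data known. Members named with every library value were the one with most reads per role, up to 14 by smallest p without overlap, those against the common direction, those under the filter and the 3 least like the shared pattern. Of the members 1 is not reported here by name or drawn in the plots by gene, but it stays in the counts and medians. The rest are named by role, and further values were given for members chosen after they were seen. Levels were not compared between genes, since transcript lengths were not used. In a RefSeq table of a different assembly, of Bos indicus, 57 members were matched. Of these 9 overlap another protein-coding gene there (DNAH3, DNAH11, DNAH17, SPAG17, CAPS, RSPH1, RSPH9, DRC1 and SNTN). Reads from shared stretches are dropped or, without strand, cannot be assigned, so values of these genes are less certain.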

Additional observations from a re-analysis of the deposited data

How the results depend on the processing

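With 2 cows against 3, small differences could not be told from the spread between cows, and genes with few reads were the least precise. Genes at an adjusted p under 0.05 numbered 0 of 15815 with limma, 457 with DESeq2 and 335 with the edgeR exact test. They numbered 0 with edgeR quasi-likelihood, with the limma alternatives that kept all 5 libraries, and with limma without 1 SF/SCL library. DESeq2 without SF/SCL replicates 1, 2 and 3 called 401, 359 and 293 genes. The cause of these differences was not tested. Leaving out an LF/LCL library leaves 1, which is then assumed to vary like the SF/SCL libraries. The count of 20 members with lower levels in LF/LCL and an unadjusted p under 0.05 was lowest at 7 without LF/LCL replicate 1 and highest at 25 without SF/SCL replicate 3, was 11 without SF/SCL replicate 2, 14 without SF/SCL replicate 1 and 21 without LF/LCL replicate 2, and lay between 16 and 22 under the alternatives that kept all 5 libraries. The 1 member higher in LF/LCL became 0 without LF/LCL replicate 1 and 2 without SF/SCL replicate 2. The median log2 fold change of the members ran from -0.453 to -0.252 over all alternatives. DESeq2 called from 2 to 7 members without 1 SF/SCL library, where it called from 0.917% to 1.17% of all genes lower in LF/LCL. At most 2 of the 6 first calls were kept in any of these fits. The log2 fold change of CAPS reversed to 0.020 without LF/LCL replicate 1, where its range without 1 library was -0.694 to 0.020. That of SPAG4 reversed to 0.502 without LF/LCL replicate 1 and to 0.160 without SF/SCL replicate 2, with a lowest value of -1.371. The median of the endothelial markers reversed to -0.382 without LF/LCL replicate 1 and to -0.113 without SF/SCL replicate 2, with a highest value of 0.571. Without 1 library the smooth muscle median ran from 0.845 to 1.836, the stromal from 0.371 to 1.137, the immune from 0.307 to 0.666, the proliferation from 0.554 to 0.852 and the secretory from -0.114 to 0.207. No paired analysis was possible because the groups held different cows. The labels give cow numbers, and the replicate numbers were assigned here.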
